A study of Homo sapiens with 238 samples.

Results

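The 9 genes followed here encode red cell surface antigens or the proteins that carry them: GYPB, GYPE and GYPC (glycophorins), RHD, RHCE and RHAG (the Rh complex), KEL and XK (the Kell complex) and ERMAP (the Scianna antigen). They were chosen by name from the 62696 genes of each count table, and all 9 passed the filter on low counts in both series. The counts come from poly(A) RNA-seq of K562, a human erythroleukemia cell line that carries out parts of the erythroid programme, in 62 libraries of 12 lines.

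In the α series, αWT is the unedited line (n = 8), and αMut1 (n = 7) and αMut2 (n = 4) are clones homozygous for a CRISPR-Cas9 mutation of the G-quadruplex (G4, a folded form of guanine-rich DNA) in HS-40, the α-globin enhancer. The 4 lines named αRes are clones made from αMut1 by inserting the G4 of another gene, MYC, into HS-40, with 8 libraries each of αRes1 and of αRes2 and 4 libraries each of αRes3 and of αRes4. In the β series, βWT is unedited (n = 4), βMut1 (n = 4) and βMut2 (n = 4) carry mutations of the G4 in HS2, a β-globin enhancer, WT-HS3Δ (n = 4) lacks the neighbouring enhancer HS3, and βMut-HS3Δ (n = 3) has both edits. Each edited line is 1 single-cell clone, so an edit and a clone cannot be told apart within a line, and p-values measure the spread between libraries of a line. The authors checked the α edit by Sanger sequencing and G4 CUT&Tag, and reported lower RNA of the target gene HBA1 in both αMut clones. HBZ, another α-like globin gene, is given here as a description and is not a check of the edit. It stood at means of 235 CPM (a gene's counts relative to the library's total, scaled by TMM) in αWT, 258 in αMut1 and 31.6 in αMut2, so the 2 mutant clones already differed there.

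None of the 9 genes lies in a globin cluster. In hg38, with gene bodies from GENCODE 44, RHD (ENSG00000187010.21) lies at chr1:25272393-25330445 on the plus strand and RHCE (ENSG00000188672.19) at chr1:25362249-25430192 on the minus strand, tail to tail. ERMAP (ENSG00000164010.15) lies at chr1:42817122-42844991 on the plus strand and GYPC (ENSG00000136732.16) at chr2:126656133-126696667 on the plus strand. GYPE (ENSG00000197465.14) at chr4:143870864-143905563 and GYPB (ENSG00000250361.9) at chr4:143996104-144019380 are neighbours on the minus strand. RHAG (ENSG00000112077.18) lies at chr6:49605175-49636839 on the minus strand, KEL (ENSG00000197993.9) at chr7:142941114-142962363 on the minus strand and XK (ENSG00000047597.7) at chrX:37685791-37732130 on the plus strand. All are protein-coding, and values are sums over their exons.

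Glycophorins are heavily sialylated proteins of the red cell membrane. GYPB carries the S and s antigens, GYPE is its relative, and GYPC, a separate gene despite its name, carries the Gerbich antigens and ties the membrane to protein 4.1. RHD carries the D antigen and RHCE the C, c, E and e antigens, and both need RHAG, a relative of ammonium transporters, to reach the surface. KEL is a zinc endopeptidase that carries the Kell antigens and is bound to XK, which carries the Kx antigen and moves lipids between the leaflets of the membrane. GATA1 is known to act on many erythroid promoters through GATA words, and CACCC words are the known type of site for KLF1.

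The promoter is a feature that the choice by name did not use, and RefSeq start sites gave 12 windows (250 bases before and 50 after a start, GRCh38.p14) for 8 of the 9 genes. Each window was searched on both strands for the GATA words AGATAA and AGATAG, for TGATAA and TGATAG, and for CCACCC. A word of the GATA group was found in 11 of 12 windows and in at least 1 window of all 8 genes, against 25.0% of 35116 windows of all genes. CCACCC was found in 4 of 12 windows (GYPB, GYPC, RHAG and KEL), against 34.3% of all windows. These windows are not independent, since the 2 windows of GYPB overlap, as do those of RHD and of RHCE, and the paralogs are near copies. A match is a description of the letters and not evidence of binding. The stretches below run from 150 bases before to 10 bases into the RefSeq transcript and are shown for the 2 pairs of paralogs, for KEL, which varied most between lines, and for RHAG, which varied least. Capitals mark the words searched for.
GYPB: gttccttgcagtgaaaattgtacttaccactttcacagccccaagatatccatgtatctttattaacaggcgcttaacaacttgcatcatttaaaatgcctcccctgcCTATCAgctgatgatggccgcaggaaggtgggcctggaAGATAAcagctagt
GYPE: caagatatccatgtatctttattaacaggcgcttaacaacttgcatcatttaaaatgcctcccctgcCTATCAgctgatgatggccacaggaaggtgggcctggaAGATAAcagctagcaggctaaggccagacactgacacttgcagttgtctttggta
RHD: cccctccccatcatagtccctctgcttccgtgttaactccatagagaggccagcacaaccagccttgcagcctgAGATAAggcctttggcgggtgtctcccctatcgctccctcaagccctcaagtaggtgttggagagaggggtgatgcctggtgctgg
RHCE: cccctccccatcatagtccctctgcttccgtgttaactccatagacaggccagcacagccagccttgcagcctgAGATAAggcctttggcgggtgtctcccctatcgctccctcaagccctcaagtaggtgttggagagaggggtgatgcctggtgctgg
KEL: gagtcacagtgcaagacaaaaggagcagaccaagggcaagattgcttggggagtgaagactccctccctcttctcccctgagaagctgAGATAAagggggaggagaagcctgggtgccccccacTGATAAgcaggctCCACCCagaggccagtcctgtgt
RHAG: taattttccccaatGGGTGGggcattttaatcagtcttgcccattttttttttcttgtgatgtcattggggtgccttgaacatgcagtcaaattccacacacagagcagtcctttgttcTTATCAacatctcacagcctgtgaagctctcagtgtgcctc

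The GYPB stretch lies at chr4:144019371-144019530 and the GYPE stretch at chr4:143905550-143905709, both on the minus strand. The RHD stretch lies at chr1:25272359-25272518 on the plus strand and the RHCE stretch at chr1:25420816-25420975 on the minus strand. KEL (chr7:142962354-142962513) and RHAG (chr6:49636830-49636989) are on the minus strand. Over their whole windows RHD and RHCE shared 298 of 300 bases, and GYPB and GYPE shared 254 of the 259 bases that their windows have in common. Both glycophorin windows hold the same pair of words (TGATAG on the reverse strand and AGATAA), and both Rh windows hold AGATAA 76 bases before the start. KEL holds AGATAA 62 bases and TGATAA 26 bases before the start, with CCACCC 13 bases before it. RHAG holds TGATAA on the reverse strand 31 bases and CCACCC on the reverse strand 136 bases before the start. The RHCE start used here lies 9367 bases inside the GENCODE gene body, and that of RHD 116 bases inside.

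The likeness of paralogs extends into the transcripts and limits how their reads can be told apart. Of all 51-base words of the GENCODE 44 canonical transcript, the length of 1 read, 25.1% in RHCE and 13.8% in RHD occurred in the other gene. In GYPB 26.3% of the words occurred in transcripts of other genes, 3.89% in GYPE, and in GYPE 0.916% occurred in GYPB. No word of GYPC, RHAG, KEL, XK or ERMAP was found elsewhere. How reads that match several genes were counted is not given in the sources used here, so values of RHD, RHCE, GYPB and GYPE are uncertain to that extent. Exons also overlap genes on the other strand: 47 bases of RHD lie in RSRP1, 113 bases of RHCE in TMEM50A, 64 and 478 bases of ERMAP in SVBP and ZNF691-DT, and 151 bases of GYPB in an unnamed long non-coding RNA. The strand setting of the counting is not given in the sources used here.

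Libraries held between 4270215 and 48671570 counts. The smallest count of a member in any library was 202, for RHD, and the highest count of any member was 34819, for RHAG. In αWT, αMut1, αRes1 and αRes2 the labels number libraries from 1 to 8, and numbers 1 to 4 and 5 to 8 formed 2 sets that stood apart in several members, so values within a set are given where they change a call or a value of the pooled comparison. Counts of pseudoautosomal genes summed to between 5588 and 24551 in 16 libraries and to 0 or 1 in the other 46: αRes1 and αRes2 numbers 5 to 8, αRes3 and αRes4 are the 16. This difference cannot be told apart from the number set in αRes1 and αRes2, or from the clone in αRes3 and αRes4. All 9 erythroid markers searched for (HBG1, HBG2, HBE1, HBZ, ALAS2, EPOR, TFRC, GATA1 and KLF1) were present in every line, and their summed level ran from 1635 to 4544 CPM in single libraries.

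RHAG was the highest member and RHD the lowest when levels were set per length of exons. Averaged over the 12 lines, RHAG stood at 269 RPKM (CPM per kilobase of exon), GYPC at 70.5, GYPE at 45.3, GYPB at 26.1, KEL at 24.0, ERMAP at 20.9, RHCE at 19.4, XK at 15.4 and RHD at 13.9 RPKM. The members differed in how far they moved between lines. From the lowest to the highest line mean, the level in CPM differed 6.97-fold for KEL, 5.25-fold for XK, 4.58-fold for RHD, 4.12-fold for GYPB, 3.75-fold for RHCE, 2.67-fold for GYPE, 2.32-fold for ERMAP, 2.20-fold for GYPC and 1.91-fold for RHAG. In the order of line means, most neighbours were not separated: of the 11 neighbouring pairs of lines, the library ranges overlapped in 7 (ERMAP) to all 11 (RHCE). αRes4 had the highest mean of GYPB, RHD, RHCE, KEL and ERMAP, and αRes3 that of GYPC and XK. The gap at the top held for GYPC, RHD, KEL, XK and ERMAP, whose highest line did not overlap the next one.

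**Figure D1:**
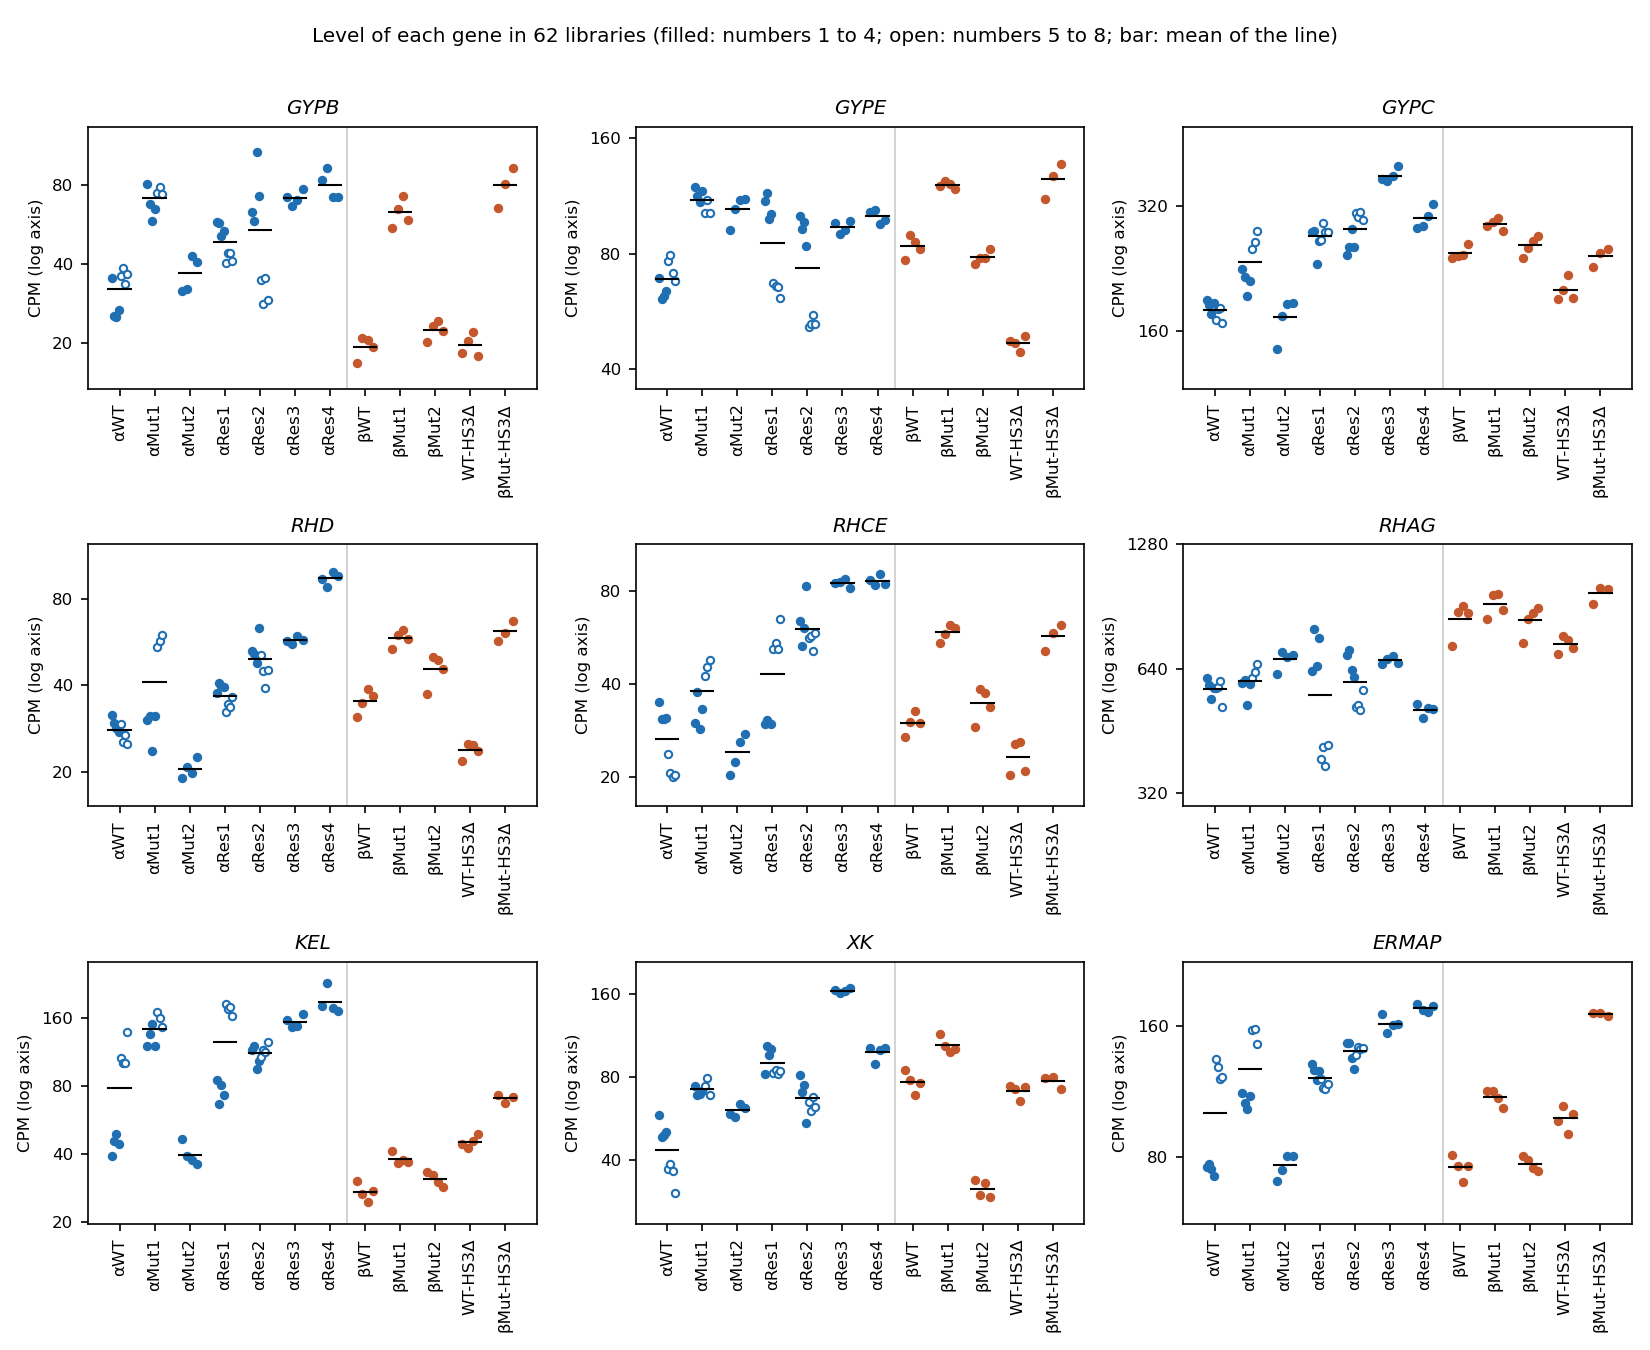
Level of each of the 9 genes (y axis, CPM on a log axis) in every library of the 12 lines (x axis; blue, α series; orange, β series). Filled circles are numbers 1 to 4, open circles numbers 5 to 8, and bars are line means. RHAG stays between 372 and 1005 CPM in all libraries, while KEL runs from 24.5 to 228 CPM.

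Whether a member differed among any lines was asked first, with edgeR's quasi-likelihood F test over all lines of a series. In the α series 8 of 9 members passed at an adjusted p below 0.05, where 88.5% of all 18247 genes tested passed, so the share of members was that of genes at large. RHAG was the member that did not pass with all libraries pooled (adjusted p = 0.113). Among numbers 1 to 4 alone RHAG passed the same F test (adjusted p = 1.44e-06). With the number set as a term in the fit it passed narrowly (adjusted p = 0.0475, F test). With replicate numbers as a block it did not pass (adjusted p = 0.0866, F test). In the β series 9 of 9 passed, against 93.6% of 17535 genes. In comparisons of a pair of lines a gene is called where its log2 difference is beyond 0.5 in size with an adjusted p under 0.05.

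αMut1 held more RNA of most members than αWT. Called higher were 6 of 9 members, none was called lower, and the background was 22.8% of all genes. GYPB rose most, with a log2 difference of 1.14 (SE 0.18, edgeR adjusted p = 1.41e-06), from 32.2 ± 5.54 CPM (SD, n = 8) in αWT to 71.2 ± 7.98 CPM (SD, n = 7). Its αWT libraries ran from 25.1 to 38.6 CPM (median 34.4) and its αMut1 libraries from 58.4 to 80.6 (median 73.7), without overlap. KEL rose by 0.87 (SE 0.22), XK by 0.72 (SE 0.09), GYPE by 0.67 (SE 0.13), RHD by 0.55 (SE 0.13) and RHCE by 0.51 (SE 0.16). GYPC (log2 difference 0.38, SE 0.07) and ERMAP (0.34, SE 0.11) passed the p threshold but not the size. RHAG differed by 0.06 (SE 0.11, adjusted p = 0.694). The median log2 difference of the 9 members was 0.55, against -0.03 over all genes.

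The 2 number sets did not give the same picture of the Rh genes. Among numbers 1 to 4, RHD did not pass between αMut1 and αWT (log2 difference 0.00, adjusted p = 0.997), and nor did RHCE (0.03, adjusted p = 0.801). Among numbers 5 to 8, RHD differed by 1.12 (SE 0.07) and RHCE by 1.11 (SE 0.08). The change of the difference between sets was 1.14 for RHD and 1.10 for RHCE, and 4 of 9 members passed this test, with a background of 29.3%. KEL went the other way, from 1.57 among numbers 1 to 4 to 0.52 among numbers 5 to 8. GYPB (1.28 and 1.08), GYPE (0.84 and 0.52) and KEL were called in both sets, ERMAP (0.53) in numbers 1 to 4 alone, and XK (1.08) and GYPC (0.62) in numbers 5 to 8 alone.

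In αMut2, the second clone with the HS-40 G4 mutated, 2 of 9 members were called against αWT (background 16.1%): GYPE rose by 0.60 (SE 0.15, adjusted p = 0.00358) and KEL fell by 0.97 (SE 0.27, adjusted p = 0.00676). GYPE stood at 91.9, 104.5, 110.2 and 111.0 CPM in the αMut2 libraries, above all αWT libraries (60.9 to 79.2 CPM). KEL stood at 46.4, 39.0, 37.7 and 36.0 CPM, within or below the range of αWT numbers 1 to 4 (39.3 to 48.9 CPM) and far below that of numbers 5 to 8 (100.8 to 138 CPM). αMut2 has numbers 1 to 4 only, and against αWT numbers 1 to 4 the KEL difference was -0.18 (SE 0.10, adjusted p = 0.207), while RHD was called lower (-0.53, SE 0.08) and GYPE higher (0.69, SE 0.07). With the number set as a term in the fit (added after the data were seen) or with numbers as a block, 0 of 9 members were called.

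Set against each other, the 2 HS-40 mutants differed in 5 of 9 members, all lower in αMut2 (background 21.9%). KEL fell by 1.85 (SE 0.28), RHD by 1.00 (SE 0.16), GYPB by 0.94 (SE 0.22), ERMAP by 0.73 (SE 0.14) and RHCE by 0.66 (SE 0.19). Among numbers 1 to 4 alone KEL (-1.75), GYPB (-0.90), RHD (-0.53) and ERMAP (-0.53) were still called, and RHCE was at -0.46. GYPE did not pass (log2 difference -0.07, adjusted p = 0.745).

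Clones with the MYC G4 in HS-40 were compared with αWT and, further below, with their parent αMut1. In αMut1 6 of 9 members were already called above αWT, so a difference from αWT need not have followed the insertion. Against αWT, 5 of 9 members were called higher in αRes1 (background 20.4%), 6 in αRes2 (18.7%), 7 in αRes3 (39%) and 8 in αRes4 (40.5%), and none was called lower. XK, the lipid scramblase of the Kell complex, was called in all 4 clones: the log2 difference was 1.03 (SE 0.09) in αRes1, 0.62 (SE 0.09) in αRes2, 1.93 (SE 0.10) in αRes3 and 1.18 (SE 0.10) in αRes4. It stood at 166, 161, 165 and 168 CPM in αRes3, where no αWT library was above 58.3 CPM. GYPC was also called in all 4 clones, with 0.59 (SE 0.07), 0.66 (SE 0.07), 1.09 (SE 0.08) and 0.75 (SE 0.08). Within numbers 1 to 4, XK in αRes2 (0.45) and GYPC in αRes1 (just under 0.5) were short of the size limit. The members called against αWT in numbers 1 to 4 and in numbers 5 to 8 were 5 and 4 for αRes1 and 7 and 4 for αRes2. αRes3 and αRes4 have numbers 1 to 4 alone, and within those numbers 8 members were called in each. The share of all genes called within a set is not given here, so these counts cannot be set against genes at large.

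Both Rh genes were called higher in αRes2, αRes3 and αRes4, and αRes3 and αRes4 had the highest means of the α lines. RHCE reached 85.0, 86.0, 87.9 and 82.3 CPM in αRes3 and 87.1, 84.0, 91.2 and 84.4 CPM in αRes4, against 20.0 to 35.0 CPM in αWT. These levels did not overlap, and the log2 differences were 1.69 (SE 0.18) and 1.72 (SE 0.18). RHD stood at 93.3, 87.9, 99.1 and 96.2 CPM in αRes4, a log2 difference of 1.76 (SE 0.15), and at 55.7 to 59.3 CPM in αRes3, a difference of 1.04 (SE 0.15). KEL, which in αWT ran from 39.3 to 138 CPM, rose by 1.29 (SE 0.25) in αRes4 and by 0.99 (SE 0.25) in αRes3. Against αWT numbers 1 to 4 alone these differences were 2.10 (SE 0.11) and 1.80 (SE 0.11), and with replicate numbers as a block 1.79 and 1.49. Mean KEL in αWT was 44.5 CPM in numbers 1 to 4 and 111.8 CPM in numbers 5 to 8. In αRes4 it was 189.6 CPM and in αRes3 154.6 CPM, so the rise is smaller beside numbers 5 to 8. By pseudoautosomal counts αRes3 and αRes4 went with αRes1 and αRes2 numbers 5 to 8, so which αWT set matches them is not known. RHAG, the partner of both Rh proteins, differed from αWT by -0.16 (SE 0.14) in αRes4 and 0.23 (SE 0.13) in αRes3, and neither passed. Among numbers 1 to 4 both passed the p threshold but not the size limit (edgeR). RHAG was at -0.17 in αRes4 (adjusted p = 0.0207) and 0.22 in αRes3 (adjusted p = 0.00415). In the fit with the block, αRes4 passed the p threshold only (-0.30, adjusted p = 0.0403) and αRes3 did not (0.09, adjusted p = 0.532).

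Against their parent αMut1 the 4 clones fell into different patterns. In αRes1 0 of 9 members were called (background 2.96%): XK passed the p threshold with a log2 difference of 0.31 (SE 0.09, adjusted p = 0.0373, edgeR), the 1 member that did. In αRes2 RHCE rose by 0.69 (SE 0.16) and GYPE fell by 0.58 (SE 0.13), 2 of 9 (background 8.96%). In αRes3 XK rose by 1.20 (SE 0.11), RHCE by 1.18 (SE 0.18) and GYPC by 0.71 (SE 0.08), 3 of 9 (background 20.6%). In αRes4 RHD and RHCE each rose by 1.21 (SE 0.15 and 0.18), 2 of 9 (background 32.5%). These counts changed within the sets. In numbers 5 to 8, GYPB (-0.83), RHD (-0.73), GYPE (-0.69) and RHAG (-0.66) were called lower in αRes1 than in αMut1, and in numbers 1 to 4 KEL (-0.82) was. In αRes2, GYPB (-1.25) and GYPE (-0.99) were called in numbers 5 to 8, and RHD (0.90) and RHCE (1.02) in numbers 1 to 4. Against αMut1 numbers 1 to 4, RHD (0.97) and ERMAP (0.58) were called in αRes3 as well, and ERMAP (0.71), KEL (0.53) and GYPC (0.50) in αRes4. With replicate numbers as a block KEL was called in αRes4 (0.71, adjusted p = 0.00165).

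**Figure D2:**
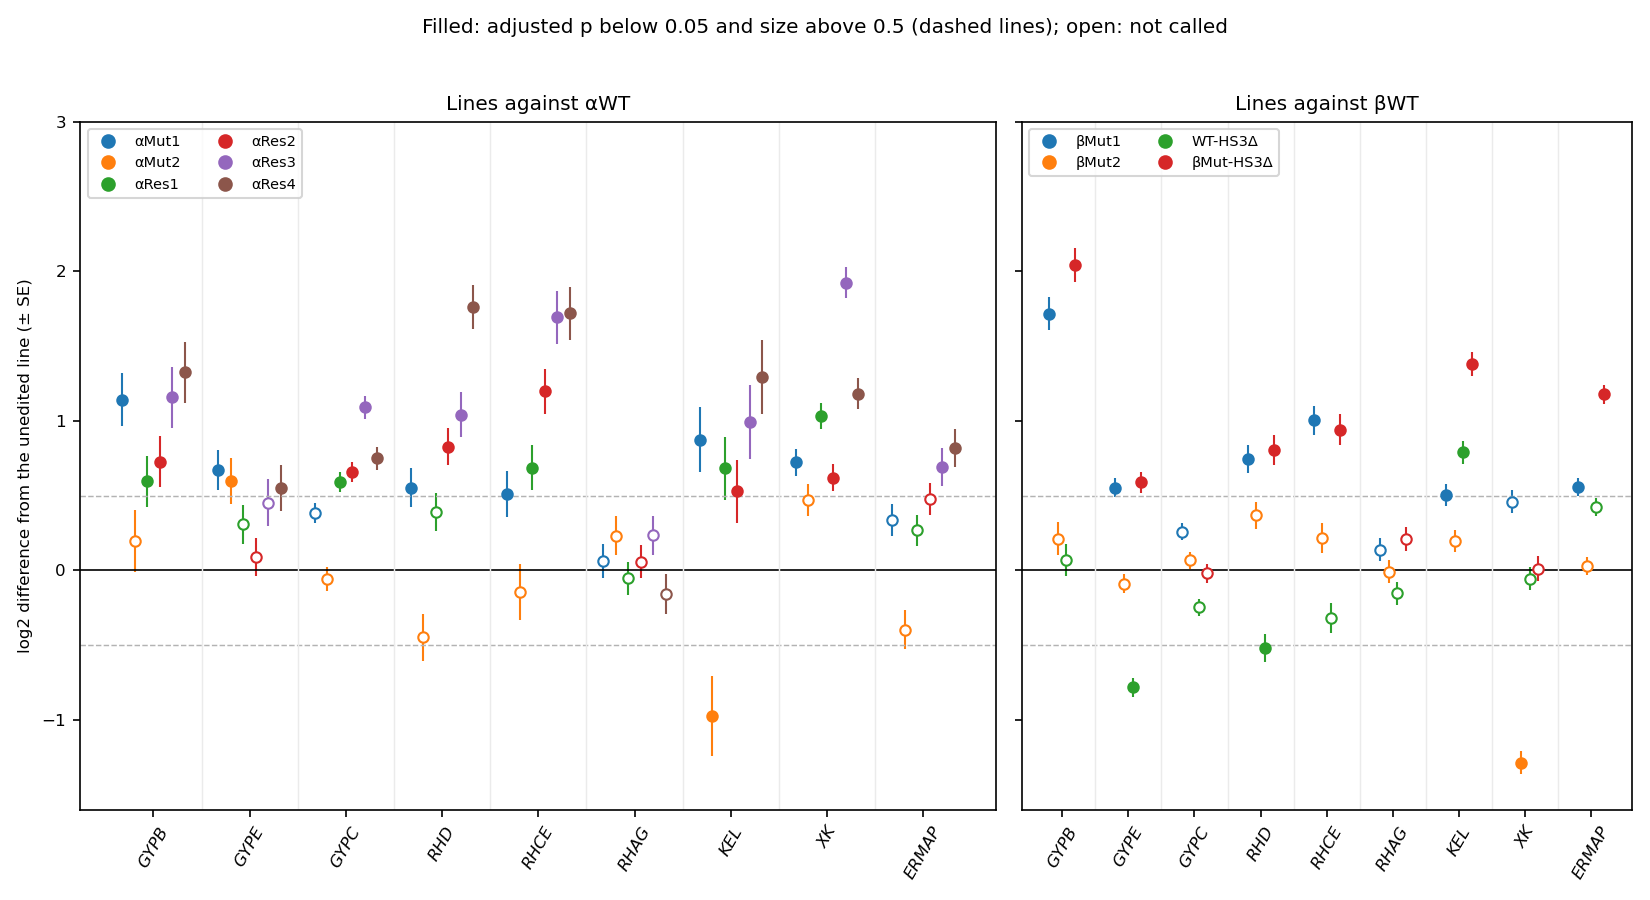
log2 difference (y axis, ± SE) of each member (x axis) from αWT (left; αMut1, αMut2 and αRes1 to αRes4) and from βWT (right; βMut1, βMut2, WT-HS3Δ and βMut-HS3Δ). Filled points are called and open points are not, and dashed lines mark 0.5. RHAG is open in every line, αMut2 has 2 filled points (GYPE at 0.60, KEL at -0.97) and βMut2 has 1 (XK at -1.29).

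Numbers 1 to 4 and 5 to 8 differed within the same line, in a comparison added after the data were seen. In αWT, 4 of 9 members were called between the sets (background 25.6%): KEL was higher by 1.31 (SE 0.10) and ERMAP by 0.74 (SE 0.05) in numbers 5 to 8, and RHCE (-0.60, SE 0.10) and XK (-0.55, SE 0.08) were lower. KEL ran from 39.3 to 48.9 CPM in αWT numbers 1 to 4 and from 100.8 to 138 CPM in numbers 5 to 8, without overlap. In αMut1, RHD was higher by 0.98 (SE 0.08) and ERMAP by 0.52 (SE 0.05) in numbers 5 to 8, 2 of 9 (background 29.1%). RHD ran from 23.7 to 31.4 CPM in αMut1 numbers 1 to 4 and from 54.5 to 59.7 CPM in numbers 5 to 8.

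Other members differed between the sets in αRes1 and αRes2. In αRes1, KEL (1.20, SE 0.10) and RHCE (0.90, SE 0.10) were higher and RHAG (-0.83, SE 0.06) and GYPE (-0.70, SE 0.06) lower in numbers 5 to 8, 4 of 9 (background 38.2%). RHAG stood at 633 to 798 CPM in αRes1 numbers 1 to 4 and at 372 to 419 CPM in numbers 5 to 8, the lowest levels of RHAG in any library. In αRes2, GYPB fell by 1.19 (SE 0.13) and GYPE by 0.81 (SE 0.06), 2 of 9 (background 15.2%). The difference from αWT changed with the set in 5 of 9 members for αRes1 (background 32.6%) and 4 of 9 for αRes2 (background 24.4%). For GYPB in αRes2 it was 1.39 among numbers 1 to 4 and -0.17 among numbers 5 to 8. GYPC, XK and KEL kept their direction in αMut1, αRes1 and αRes2 against αWT in both sets, though KEL was at only 0.06 in αRes2 numbers 5 to 8.

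**Figure D3:**
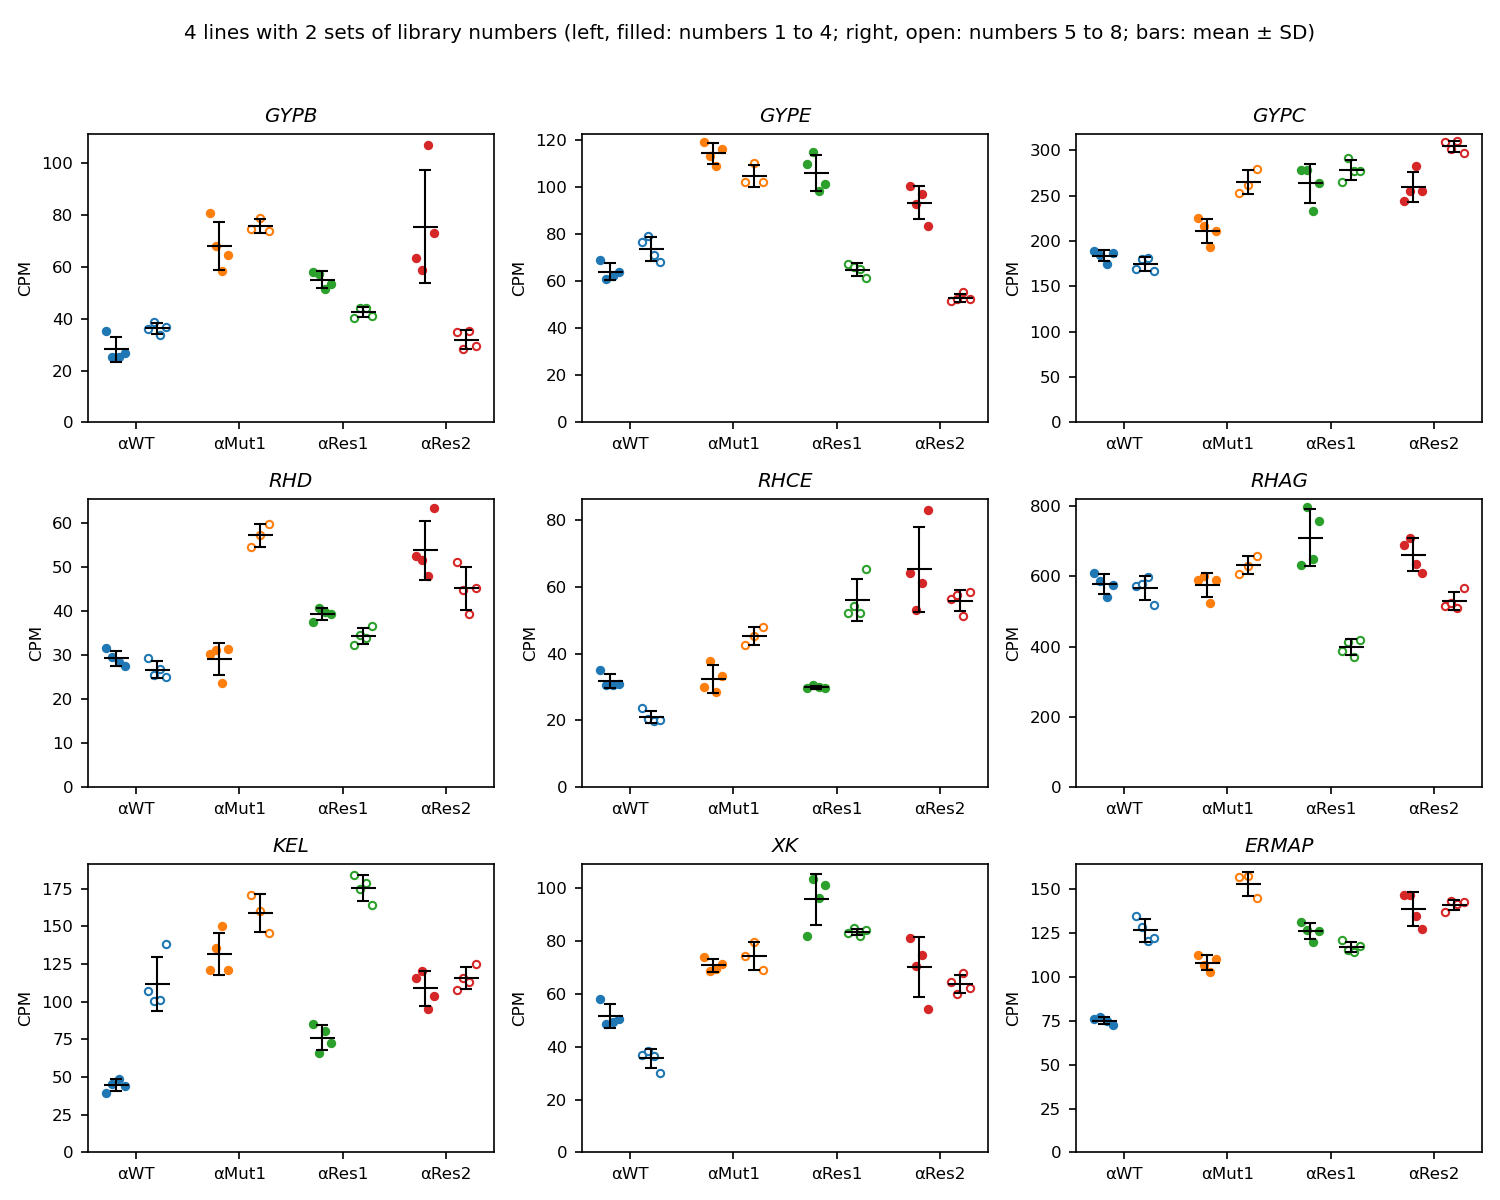
Level (y axis, CPM from 0) of each member in αWT, αMut1, αRes1 and αRes2 (x axis), with numbers 1 to 4 (filled, left) beside numbers 5 to 8 (open, right); bars are the mean ± SD. KEL in αWT and RHD in αMut1 are each higher in every library of numbers 5 to 8 than in any of numbers 1 to 4.

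In the β series the first mutant clone again held more RNA of most members. Against βWT, 6 of 9 were called higher in βMut1 and none lower (background 20.3%). GYPB stood at 16.7, 20.9, 20.6 and 19.4 CPM in βWT and at 54.8, 65.0, 72.8 and 58.9 CPM in βMut1. The groups did not overlap, and the log2 difference was 1.72 (SE 0.11, adjusted p = 1.85e-09, edgeR), a 3.29-fold difference. RHCE rose by 1.00 (SE 0.10), RHD by 0.75 (SE 0.09), ERMAP by 0.56 (SE 0.06), GYPE by 0.55 (SE 0.06) and KEL by 0.50 (SE 0.08), the last just past the size limit. KEL was at 0.47 with DESeq2 or RLE scaling and between 0.42 and 0.56 without single libraries, and the call ended without βMut1 replicate 1, 3 or 4 or βWT replicate 2, 3 or 4. XK (0.46, SE 0.08) and GYPC (0.26, SE 0.06) passed the p threshold only, and RHAG was at 0.14 (SE 0.08, adjusted p = 0.133). Fitted with replicate numbers as a block, RHAG passed the p threshold but not the size limit (0.14, SE 0.05, edgeR adjusted p = 0.0172).

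βMut2, the second clone with the HS2 G4 mutated, had 1 of 9 members called against βWT (background 28.7%). This was XK, which fell by 1.29 (SE 0.08, adjusted p = 2.19e-10). It stood at 33.8, 29.8, 33.0 and 29.3 CPM, against 84.9, 77.9, 68.7 and 76.5 CPM in βWT. GYPB was at 20.1, 23.3, 24.2 and 22.1 CPM, a log2 difference of 0.21 (SE 0.11, adjusted p = 0.11). Fitted with replicate numbers as a block, this GYPB difference passed the p threshold but not the size limit (0.22, SE 0.06, edgeR adjusted p = 0.00259). The 2 HS2 mutants differed in 5 of 9 members, all lower in βMut2 (background 25.8%): XK by -1.75 (SE 0.08), GYPB by -1.51 (SE 0.11), RHCE by -0.79 (SE 0.10), GYPE by -0.64 (SE 0.06) and ERMAP by -0.53 (SE 0.06). KEL (-0.31), RHD (-0.38) and GYPC (-0.19) passed the p threshold only.

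Deletion of HS3 alone went with changes in both directions. Against βWT, 3 of 9 members were called in WT-HS3Δ, where 50.2% of all genes were called. GYPE fell by 0.78 (SE 0.06) and RHD by 0.52 (SE 0.09), and KEL rose by 0.79 (SE 0.08). The RHD difference was short of the size limit with DESeq2 or RLE scaling (-0.49), without βWT replicate 3 (-0.47) and without WT-HS3Δ replicate 1 (-0.48). GYPE stood at 47.4, 46.9, 44.4 and 48.9 CPM, below all libraries of the other 11 lines. GYPB did not pass (0.07, SE 0.11, adjusted p = 0.59).

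In βMut-HS3Δ, the line labelled as βMut1 with HS3 deleted, 6 of 9 members were called higher than in βWT (background 48.1%), 6 of 9 higher than in WT-HS3Δ (background 16.3%), and 2 of 9 higher than in βMut1 (background 53%). GYPB stood at 65.6, 80.7 and 92.9 CPM, with a log2 difference of 2.04 (SE 0.12) from βWT and 1.97 (SE 0.12) from WT-HS3Δ. KEL and ERMAP were the members above βMut1, by 0.88 (SE 0.08) and 0.62 (SE 0.06). ERMAP stood at 172, 172 and 169 CPM, against 104 to 113 CPM in βMut1.

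Whether the difference between lines with the HS2 G4 mutated and intact was the same with and without HS3 was tested as an interaction. It was called for 2 of 9 members (background 12.1%). The edited lines compared are single clones, and βMut2, where neither GYPE nor RHD was called against βWT, is not part of this comparison. The log2 difference of GYPE between mutated and intact HS2 was 0.55 with HS3 and 1.37 without it, an interaction of 0.82 (SE 0.09, adjusted p = 3.73e-06, edgeR). That of RHD was 0.75 with HS3 and 1.32 without it, an interaction of 0.58 (SE 0.13, adjusted p = 0.00527). With the HS2 G4 mutated, GYPE stood at means of 121 CPM with HS3 and 125 CPM without it, and with HS2 intact at 83.5 and 46.9 CPM. RHD stood at 58.4 and 61.6 CPM with HS2 mutated and at 35.4 and 23.8 CPM with HS2 intact. XK passed the p threshold only, with an interaction of -0.39 (SE 0.11, adjusted p = 0.0197). For GYPB the interaction was 0.25 (SE 0.16, adjusted p = 0.304). Fitted with replicate numbers as a block, 4 further interactions passed the p threshold but not the size limit (edgeR). These were GYPB (0.23, adjusted p = 0.0342), RHCE (0.25, adjusted p = 0.0318), ERMAP (0.19, adjusted p = 0.0429) and RHAG (0.23, adjusted p = 0.0194).

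**Figure D4:**
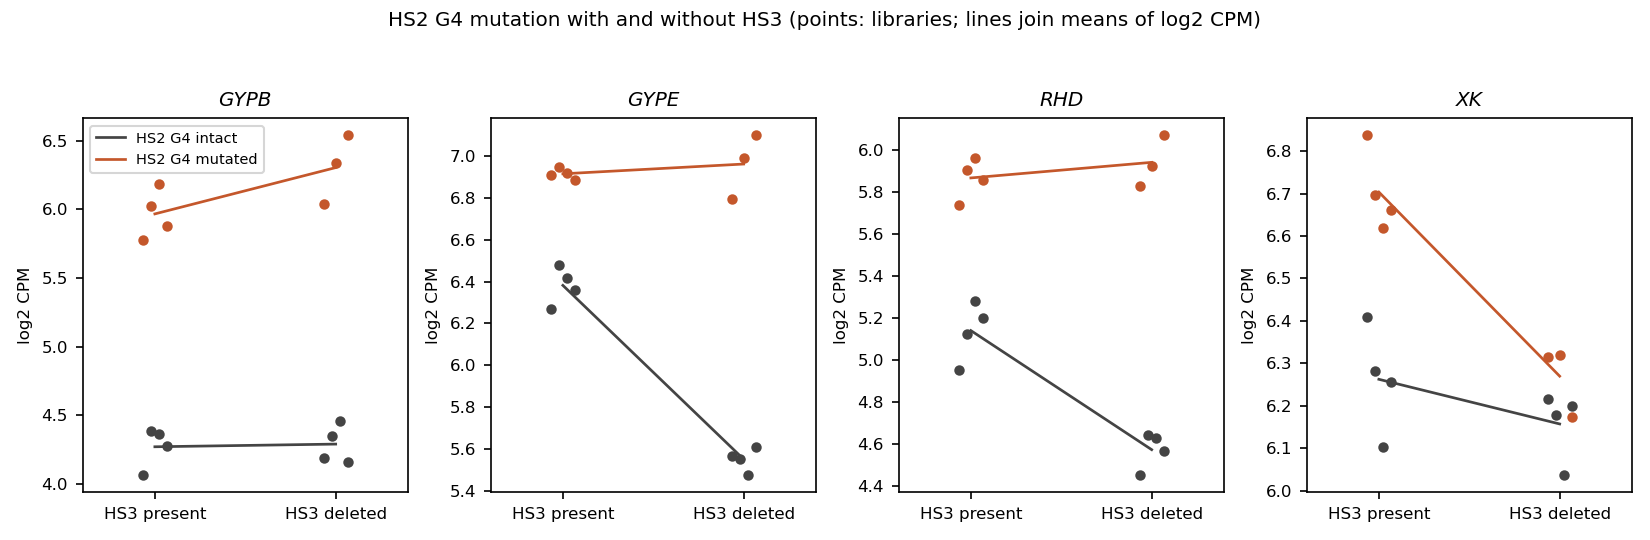
log2 CPM (y axis) of GYPB, GYPE, RHD and XK in single libraries with HS3 present or deleted (x axis; y ranges differ), with the HS2 G4 intact (dark grey; βWT and WT-HS3Δ) or mutated (orange; βMut1 and βMut-HS3Δ); lines join the means. For GYPE the lines spread apart from a difference of 0.55 with HS3 to 1.37 without it.

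The unedited lines of the 2 series were not alike. Of 9 members 4 were called between αWT and βWT (background 48.1%): KEL was higher in αWT by 1.53 (SE 0.34) and GYPB by 0.73 (SE 0.13), and XK (-0.82, SE 0.14) and RHAG (-0.56, SE 0.07) were lower. With replicate numbers as a block the KEL difference was 0.71 (SE 0.10), under the pooled value by more than 1.5 times, and 4 members were called as before. KEL in αWT numbers 1 to 4 ran from 39.3 to 48.9 CPM, still above the βWT libraries at 24.5 to 30.4 CPM.

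Paralogs were also compared within libraries, where a ratio of counts (0.5 added to each) does not depend on the scaling. Shares of RHD in the summed counts of RHD and RHCE lay near even in most lines, from 40.2% ± 0.741 (SD, n = 4) in αRes3 to 56.8% ± 0.543 (SD, n = 4) in βMut2. Against αWT (51.9% ± 4.30, n = 8) the log2 ratio of RHD to RHCE was lower by 0.68 in αRes3 (adjusted p = 0.0101, two-sided exact permutation test, adjusted over 20 tests) and by 0.40 in αRes2 (adjusted p = 0.00932, exact permutation test). Among numbers 1 to 4 these differences were -0.45 (adjusted p = 0.0408) and -0.15 (adjusted p = 0.159, exact permutation test), so the call of αRes2 was lost. In αRes1 the share ran from 35.9% to 57.1%, and the test did not pass (exact permutation test, adjusted p = 0.307). It was above that of αWT among numbers 1 to 4, by 0.51 in the log2 ratio.

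GYPB made up less than GYPE in all lines by mean share, and its share moved more than that of RHD. It was 18.8% ± 0.686 (SD, n = 4) of the summed counts in βWT, 34.2% ± 2.61 (SD, n = 4) in βMut1, 29.5% ± 2.84 (SD, n = 4) in WT-HS3Δ and 38.8% ± 1.62 (SD, n = 3) in βMut-HS3Δ. The log2 ratio differed from βWT by 1.16 in βMut1 and 0.85 in WT-HS3Δ (exact permutation test, adjusted p = 0.0408 in both, with no overlap). A comparison of 4 with 4 libraries cannot give a p below 0.0286 in this test, and 3 with 4 cannot go below 0.0571, so the log2 ratio difference of 1.45 in βMut-HS3Δ could not pass. In αMut1 the share was 39.2% ± 3.08 (SD, n = 7) and in αMut2 26.0% ± 1.96 (SD, n = 4), above and below αWT (31.7% ± 2.26, n = 8), with log2 ratio differences of 0.48 (adjusted p = 0.00622) and -0.40 (adjusted p = 0.0101) in the exact permutation test.

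**Figure D5:**
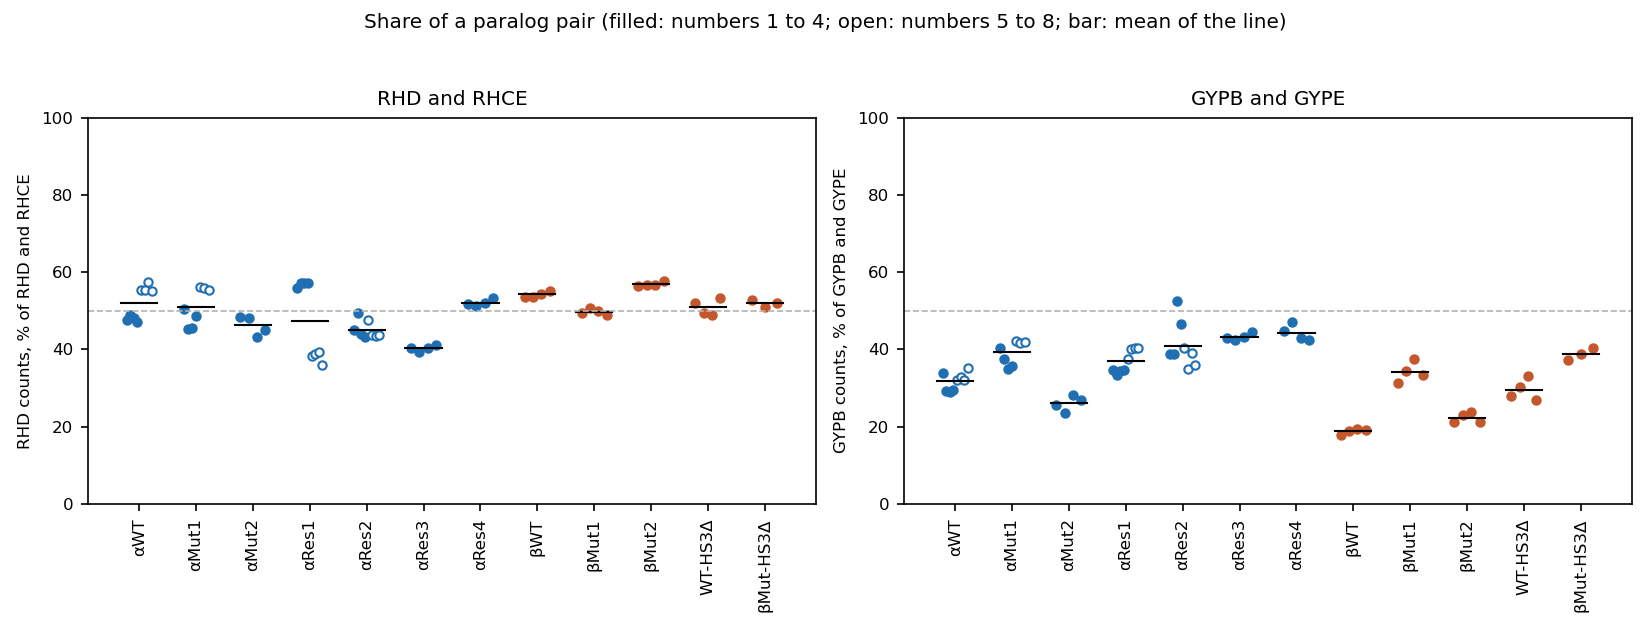
Share (y axis, percent from 0 to 100) of RHD in the counts of RHD and RHCE (left) and of GYPB in those of GYPB and GYPE (right) in each library of the 12 lines (x axis). Filled circles are numbers 1 to 4, open circles numbers 5 to 8, bars are line means and the dashed line is 50%. The GYPB share is lowest in βWT at 18.8% and highest in αRes4 at 44.3%.

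Members did not move as a single block across the 12 lines. Over the 12 line means of log2(CPM + 0.5), Pearson's r was 0.92 between RHD and RHCE, 0.88 between GYPC and RHCE, 0.86 between GYPB and ERMAP, and 0.83 between KEL and ERMAP. GYPB and GYPE had an r of 0.71. For RHAG the highest r was 0.22, with GYPE, and its r with KEL was -0.74. RHCE and RHD had an r of -0.12 and 0.02 with RHAG, and KEL and XK had an r of 0.47. These values are descriptions over 12 points that share controls, clones and parents. Among 16992 genes the nearest to KEL was EPOR, the erythropoietin receptor (r = 0.98), to RHCE it was TAL2 (0.95), to RHD H4C5 (0.94), to GYPB TTLL7 (0.92), to GYPE CLEC2B (0.87), to GYPC FAM210B (0.95), to XK SLC22A23 (0.92), to ERMAP FAXDC2 (0.96) and to RHAG KCTD20 (0.97). RHCE was the third nearest gene to RHD, and this was the only case of a member among the 3 nearest genes of another.

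Other blood group genes, a list of 37 of which 29 were tested in each series, were read in the same way. In αMut1 11 of them were called higher than in αWT and 1 lower (22.8% of all genes called), with a median log2 difference of 0.44, and in αMut2 2 were higher and 5 lower (16.1% of all genes), with a median of -0.10, among them ACHE (-2.96) and AQP1 (-1.59), which fell. SLC4A1, the band 3 anion exchanger that carries the Diego antigens, rose by 3.58 (SE 0.30) in αMut1, from 13.5 to 161.5 CPM, and stood at 13.2 CPM in αMut2. ABCG2 (3.71, SE 0.40), BCAM (2.05, SE 0.30) and CD59 (0.64, SE 0.05) rose in αMut1 as well, ABCG2 from 0.335 to 4.45 CPM. In αRes3 15 were called higher and 3 lower (39% of all genes), and in αRes4 11 higher and 4 lower (40.5%). In βMut1 5 of 29 were higher and 2 lower (20.3% of all genes, median 0.08), among them ICAM4 (0.53, SE 0.08), SEMA7A (0.52, SE 0.08) and ABCG2 (1.88, SE 0.29, at 0.923 CPM), and in βMut2 5 were higher and 7 lower (28.7% of all genes, median -0.12).

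Membrane partners of these proteins were 13 genes, all tested, with SLC4A1 again among them. In αMut1 4 were higher and 1 lower (22.8% of all genes called), and in αMut2 2 were higher and 3 lower (16.1%). DMTN, an actin-bundling protein of the red cell skeleton, rose by 2.10 (SE 0.15) and CD47, a partner of the Rh complex, by 0.62 (SE 0.12) in αMut1. CD47 rose by 1.03 (SE 0.14) in αMut2, where EPB42 (-1.31, SE 0.30) and the spectrin SPTB (-0.93, SE 0.22) were among those that fell. In βMut1 2 partners were higher (SLC4A1 by 0.58 and EPB42 by 0.67) and 3 lower, among them STOM (-0.88, SE 0.07), where 20.3% of all genes were called.

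Erythroid regulators were called in differing numbers in the lines where members rose. Of 12 tested, 3 were called higher and 2 lower in αRes3 (39% of all genes called), 3 higher and 3 lower in βMut-HS3Δ (48.1%), and 0 higher and 2 lower in αMut1 (22.8%): MYB by -0.51 (SE 0.08) and LMO2 by -0.74 (SE 0.13). In βMut1 LMO2 (-0.73, SE 0.09) was the 1 gene called (20.3% of all genes), and LMO2 was also called in αMut2 (-1.30). GATA1 was called in none of the comparisons with αWT or βWT, and its mean level ran from 246 to 331 CPM over the lines. KLF1 was called higher in αRes3 (0.64), WT-HS3Δ (1.00) and βMut-HS3Δ (1.11). GATA1 and KLF1 were named here after their values were seen.

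Markers of the erythroid and other lineages differed between lines as well. The 9 erythroid markers summed to 1923 to 2597 CPM in αWT, 2139 to 2976 in αMut1, 1635 to 1731 in αMut2, 4046 to 4544 in αRes3 and 3544 to 3638 in αRes4, and from 2086 to 2248 in βWT, 2189 to 2455 in βMut1, 2881 to 3341 in βMut2 and 2971 to 3105 in βMut-HS3Δ. In βMut2 the sum was above βWT while no member was called higher, and in βMut1, with 6 members higher, it overlapped βWT. TFRC held a large part of this sum, at means of 665 CPM in βWT, 460 in βMut1 and 1296 in βMut2. In βMut1 the means of HBG1, HBG2, HBE1, HBZ and ALAS2 were above βWT, and those of TFRC, EPOR, GATA1 and KLF1 were below. Of the 9, 3 were called higher in αMut1 (22.8% of all genes called), led by ALAS2 (1.19, SE 0.19), and 4 were called lower in αMut2 (16.1%). The 7 megakaryocyte markers summed to 16.3 to 22.1 CPM in αWT and 80.1 to 96.9 in αMut1, 18.0 to 18.7 in αMut2, and 115 to 148 in αRes3 and αRes4. TUBB1 made up most of this sum in the α lines (a mean of 12.1 CPM in αWT and 69.3 in αMut1), and GP1BA, GP9, PF4 and PPBP, which define the lineage, were at or near 0 CPM in all lines. In the β series the same sum was 28.0 to 37.0 CPM in βWT and 22.7 to 32.3 in βMut1, where GYPB rose. Of 7 granulocyte and monocyte markers 5 had line means averaging under 1 CPM, and LYZ, which made up most of their sum, ran from 4.72 CPM in WT-HS3Δ to 199 CPM in αMut2. The sum was 40.3 to 56.0 CPM in αWT, 57.4 to 209 in αMut1, 194 to 207 in αMut2, 24.0 to 30.9 in βWT and 26.9 to 39.1 in βMut1. Of 6 lymphoid markers 3 were under 1 CPM averaged over lines, and their sum was 10.2 to 16.5 CPM in αWT, 10.5 to 27.3 in αMut1, 26.4 to 35.5 in βWT and 76.4 to 103 in βMut2, most of it CD3D. Of 4 fibroblast markers COL3A1 and DCN were under 1 CPM averaged over lines (COL3A1 at 3.19 CPM in αRes3), and the sum was 3.68 to 6.23 CPM in αWT, 6.56 to 21.9 in αMut1, 4.54 to 55.7 in αRes1 and 50.4 to 51.8 in αRes3. It was 3.02 to 5.53 CPM in βWT and 31.5 to 46.5 in βMut-HS3Δ, where COL1A2 stood at 38.9 CPM and 6 members were called higher. The part of these shifts in the results on the members was not tested.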

How the data were processed

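Poly(A) RNA-seq libraries (paired-end, strand-marking kit) of 12 K562 lines were analysed, 62 of 238 samples of the series; the other samples were not analysed here. The authors trimmed reads with cutadapt, aligned them to hg38 with bwa mem, used SAMtools 1.15.1, marked duplicates and ran featureCounts with the GENCODE 42 genes; strand and multimapping settings are not given in the sources used here. The deposited values are raw counts per gene, with 0 columns of no sample.

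Genes with a mean of at least 10 counts were tested within each series with edgeR 4.0.16 (R 4.3.3; TMM, quasi-likelihood F test, limma 3.58.1), line as the only term, Benjamini-Hochberg adjustment over all genes tested, and a call needed a log2 difference beyond 0.5 with an adjusted p under 0.05. Levels are CPM over all 62 libraries; RPKM divides by the GENCODE 44 exon length. DESeq2 1.42.0, RLE scaling, no filter, other sample sets, a replicate block and leaving out libraries were alternatives; the number set as a term, comparisons between sets and leaving out αRes2 replicate 3 (the shallowest α library) were added after the data were seen. Scripts were tested on simulated data. The 9 genes and all lists were chosen with earlier results of these data known. Named were all 9 genes, up to 4 genes with the smallest adjusted p per list, neighbours and the nearest genes by r. Same-numbered libraries deviated together (every correlation over 0.1) between αMut1 and αRes2 (0.125 to 0.256 over 7 numbers), between αRes1 and αRes2 (0.119 to 0.271 over 8) and between βMut1 and βMut2 (0.127 to 0.76 over 4), which were taken as paired from the data. No 2 libraries of a line agreed within counting noise. In βWT, βMut1, βMut2 and βMut-HS3Δ, library 1 stood apart from the others of its line. Chi-square per gene was at least 21.4 in pairs with library 1 and at most 7.7 in the other pairs of these lines. Depth differed, so a library with fewer counts gives less precise values.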

Additional observations from a re-analysis of the deposited data

Results flagged for a closer look

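A single library stood far from the others of its line in 4 of 99 groups tested, where chance gives about 1 in 20. GYPC was lowest in αRes1 replicate 3, at 232.7 CPM, with the next of 8 libraries at 264.4 CPM. RHCE was highest in αRes2 replicate 4, at 83.0 CPM, with the next of 8 at 64.0 CPM. KEL was highest in αRes4 replicate 2, at 228 CPM, with the next of 4 at 180 CPM, and XK was lowest in the same library, at 88.9 CPM, with the next at 100.2 CPM.

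The difference between lines with the HS2 G4 mutated and intact changed with HS3 for RHD (log2 interaction 0.58, adjusted p = 0.00527) and GYPE (0.82, adjusted p = 3.73e-06), by edgeR's quasi-likelihood test. The edited lines compared are single clones, and βMut2 is not part of this comparison.

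The difference of a line from αWT changed between numbers 1 to 4 and 5 to 8, given as the second minus the first on the log2 scale. For αMut1 it changed in RHD (1.14, adjusted p = 8.05e-11, edgeR), RHCE (1.10), KEL (-1.03) and XK (0.63). For αRes1 it changed in RHCE (1.51), ERMAP (-0.84), GYPE (-0.90), GYPB (-0.73) and RHAG (-0.79). For αRes2 it changed in ERMAP (-0.72), GYPE (-1.01), GYPB (-1.54) and KEL (-1.24).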

How the results depend on the processing

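Of 118 member differences past the adjusted p threshold, 118 kept direction and threshold with DESeq2, 117 with RLE scaling, 105 with no filter on low counts and 98 of 108 with the fit of the compared lines alone, and none turned. Calls that ended at the size limit were those of KEL in βMut1 (0.47) and RHD in WT-HS3Δ (-0.49) with DESeq2 and with RLE scaling. With no filter they were KEL in βMut1 (0.49) and αRes2 (0.49), RHCE in αMut1 (0.48), GYPE in αRes4 (0.46) and RHD in WT-HS3Δ (-0.42). With only the lines compared, KEL lost the call in αRes1, αRes2 and βMut1 (0.48), and GYPE in αRes4 lost it with the block (0.34). With the number set as a term, RHCE in αMut1 (just under 0.5) and GYPE in αRes4 (0.35) lost it. With no limit on size the members called were 5 in αMut2 against αWT, 1, 5 and 5 in αRes1, αRes3 and αRes4 against αMut1, 3 and 6 in βMut2 and WT-HS3Δ against βWT, 8 in βMut2 and 5 in βMut-HS3Δ against βMut1, and 7 between the unedited lines. αRes1 against αMut1 gave 1 with DESeq2, 1 with only the lines compared, 1 in numbers 1 to 4, 4 in numbers 5 to 8, 1 with the number set as a term and 1 without αRes2 replicate 3. Numbers 1 to 4 gave 5 for αRes3 and 5 for αRes4 against αMut1. With the number set as a term αMut2 against αWT gave 0 and αRes4 against αMut1 gave 4. Shares of all genes called under these settings, and with the block below, are not given here. These counts therefore cannot be set against genes at large.

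With replicate numbers as a block, 0 members were called in αMut2 against αWT, 5 in αRes3 and 4 in αRes4 against αMut1, where samples share only a number. The block moved no other count of members by over 1.5 times, those of the paired lines (2 in αRes2 against αMut1, 5 in βMut2 against βMut1) included. In the β series it took further members past the p threshold but not the size limit, as given above. 

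Values that turned in numbers 1 to 4 were RHD in αMut1 (-0.00048), ERMAP in αMut2 (0.0083) and RHCE in αRes1 (-0.11) against αWT, and in numbers 5 to 8 ERMAP in αRes1 (-0.090) and GYPB in αRes2 (-0.17). In numbers 1 to 4 the log2 ratio of RHD to RHCE against αWT was 0.51 in αRes1 (turned), -0.15 in αRes2 (lost) and 0.24 in αRes4 (gained), and that of GYPB to GYPE was 0.25 in αRes1 (lost). The cause was not tested.

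Libraries were left out 1 at a time from the lines with 3 or 4 libraries, and αRes2 replicate 3 was left out of the α fit. No library of αWT, αMut1 or αRes1 was left out, so differences among these lines were not put to this check. They had 1 fit each, without a library of another line, and stay among the 118 differences counted next. That total is therefore above the number of differences put to the check. Without single libraries, 8 of 118 differences lost the threshold at least once: RHD and ERMAP in αMut2 against αWT, ERMAP in αRes3 against αMut1, KEL in βMut2 and RHAG in βMut-HS3Δ against βWT, GYPB and GYPC in βMut-HS3Δ against βMut1 and WT-HS3Δ respectively, and the XK interaction (-0.45 to -0.31). In βMut-HS3Δ against βMut1, GYPB was at 0.21 without βMut-HS3Δ replicate 3. The RHD ratio of αRes4 ranged from -0.014 to 0.027. Against βWT it ranged from -0.27 to -0.24 in βMut1, 0.14 to 0.17 in βMut2 and -0.24 to -0.15 in WT-HS3Δ, and the GYPB ratio from 1.09 to 1.22, 0.26 to 0.33 and 0.77 to 0.91. These 6 cannot pass with 3 libraries against 4.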

Other observations

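XK and its 2 nearest tested protein-coding genes differed in the same direction. LANCL3, which ends 1328 bases from XK, fell by 1.83 on the log2 scale (SE 0.16) in βMut2 against βWT and rose by 1.97 (SE 0.13) in αRes3 against αWT. CYBB, a subunit of the phagocyte NADPH oxidase that lies 47888 bases away, fell by 1.11 (SE 0.18) in βMut2 and rose by 2.33 (SE 0.13) in αRes3. In αMut1, CYBB rose by 1.07 (SE 0.12) and LANCL3 was at 0.35 (SE 0.11), short of the size limit. Of the neighbours of the Rh genes, RSRP1 was called lower in αRes3 (-0.59, SE 0.23), where RHD and RHCE rose, and higher in βMut2 (0.52, SE 0.19), and was at -0.19 in αMut1. The others were not called in those comparisons: SYF2 was at -0.04 in αMut1, -0.24 in αRes3 and -0.21 in βMut2, TMEM50A at 0.00 in αMut1, -0.21 in αRes3 and 0.27 in βMut2, and MACO1 at -0.08, -0.04 and -0.18.

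Relatives of the members that act outside the red cell, 12 genes tested of 21 listed, gave 3 higher and 1 lower in αMut1 (22.8% of all genes called), 0 higher and 3 lower in βMut1 (20.3%), and 1 higher and 8 lower in WT-HS3Δ (50.2%). SDC2, a syndecan with a cytoplasmic end like that of GYPC, fell in αMut1, from a mean of 0.737 CPM in αWT to 0.0556 CPM, and in βMut1, from 0.641 CPM in βWT to 0.238 CPM; these are few counts per library, so no fold is given. The butyrophilins BTN3A1 (0.88, SE 0.17) and BTN3A3 (1.06, SE 0.23), relatives of ERMAP, rose in αMut1. XKR8, a scramblase related to XK, fell in WT-HS3Δ, from a mean of 3.48 CPM in βWT to 0.0316 CPM, which is near 0 counts per library, so no fold is given.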
